A study of Mus musculus with 6 samples.

Results

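The genes described here are 36 genes of the p53 pathway and of mitochondrial apoptosis, taken by name from the 52609 annotated genes to which the deposited transcripts could be summed. They were grouped by role into p53 and its inhibitors (3 genes), arrest and growth control targets (7), metabolism and repair targets (2), pro-death genes (20) and survival genes (4). All 36 passed the filter on low counts and were tested.

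Polyadenylated RNA was measured by sequencing in mouse epiblast stem cells, in 3 libraries made with Activin A in the medium and 3 without. Epiblast stem cells are primed pluripotent cells taken from the embryo's epiblast, grown here on inactivated embryonic fibroblasts (feeder cells) with 20% serum replacement. The cells with Activin A received it at 20 ng/mL, and both groups received FGF2 at 10 ng/mL, the Wnt secretion inhibitor IWP2 at 5 µM and SB431542 at 2 µM, which blocks type I receptors of Activin A and its relatives. The receptor inhibitor was thus present also where Activin A was added. The 3 libraries of each group carry replicate numbers, but no label states that they are separate cultures, so the p-values measure the spread between libraries, which may be technical.

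Several labels limit the comparison. The treatment text names Activin A for every sample, and so does the growth factor entry of replicate 1 without Activin A, against that sample's title. The design text speaks of a pair of lines while no sample label names a line, so a line difference and Activin A cannot be told apart. The libraries held 9946521 to 16350923 estimated reads. The library with Activin A replicate 3 was the shallowest and lay apart from its group on the second principal component, while the first separated the groups and held 58.1% of the variance. All 12 epiblast stem cell markers were detected and tested, 11 of them higher and 1 lower with Activin A. Their summed level was 817 to 830 TPM with Activin A, against 328 to 349 TPM without. Of 14 fibroblast markers none was at 0, and 13 were tested, 6 of them higher and 2 lower with Activin A. Their summed level was 129 to 162 TPM with Activin A, against 149 to 157 TPM without. Of 12 proliferation genes, 1 was higher and 5 were lower with Activin A, and the sum was 1516 to 1680 TPM with Activin A, against 1697 to 1792 TPM without. Among all genes tested, 15.2% were higher and 14.0% lower with Activin A. The part of these marker and proliferation differences in the results below was not tested. In bulk RNA, fewer cells of a type and a lower level of the marker genes within the same cells cannot be told apart.

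As background, p53 is a transcription factor that is held at a low protein level by MDM2 and MDM4 and that, once released by DNA damage or other stress, activates genes for cell cycle arrest, repair and death. Cell death through mitochondria is set by the BCL2 family: BH3-only proteins sense stress, BAX and BAK open the outer mitochondrial membrane, and survival proteins such as BCL-XL and MCL1 hold both in check. Cytochrome c then leaves the mitochondria and, with APAF1 and caspase 9, starts the caspase cascade. Epiblast and pluripotent cells are known to stand close to the threshold of this pathway.

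Promoter sequences were searched for the 10-letter unit of the p53 response element, which p53 binds in pairs, in windows from 250 bases before to 50 bases after annotated start sites (RefSeq, GRCm38.p6). The unit reads alike on both strands, and a pair was counted where up to 13 bases lay between 2 units. Windows were found for 30 of the 36 genes, and 10 of their 44 windows (22.7%), belonging to 9 genes, held the unit, against 8.36% of all 32851 windows. The 2 Aen windows among them overlap and hold the same match. Many of the 36 genes were listed as p53 targets, so the share describes the list. A pair lay in 1 window of these genes and in 24 windows of all genes (0.0731%). Only exact matches were counted, so units with a differing letter were missed. These matches describe letters only and are not evidence of binding.

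The upstream parts of 2 of these windows are shown. Cdkn1a holds the only pair of exact matches. Ccng1 is the only one with a match among the 8 called genes that have a window. Capitals mark the exact matches, and each sequence runs 5′ to 3′ on the strand of its gene. In Cdkn1a, the letters tgacatgttc directly after GAACATGTCT differ from the unit in their opening letter, so they were not counted. Which of these letters p53 binds was not tested. The Cdkn1a stretch is chr17:29090729-29090978 (plus strand), and the Ccng1 stretch is chr11:40755287-40755536 (minus strand). The start site of the Cdkn1a window lies 2790 bases before the start of the transcript Cdkn1a-201, which held most of the reads of the gene.
Cdkn1a: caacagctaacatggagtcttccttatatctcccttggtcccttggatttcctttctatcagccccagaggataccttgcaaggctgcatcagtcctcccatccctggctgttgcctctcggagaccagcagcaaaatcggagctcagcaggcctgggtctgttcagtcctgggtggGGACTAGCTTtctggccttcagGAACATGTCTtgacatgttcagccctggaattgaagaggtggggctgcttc
Ccng1: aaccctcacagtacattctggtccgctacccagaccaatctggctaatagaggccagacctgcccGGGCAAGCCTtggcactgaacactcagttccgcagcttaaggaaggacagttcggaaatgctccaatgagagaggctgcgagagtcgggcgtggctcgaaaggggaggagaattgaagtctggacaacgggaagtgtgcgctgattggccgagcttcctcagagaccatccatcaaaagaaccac

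With Activin A, several p53 targets of growth control and the BH3-only genes Bid, Bbc3 and Pmaip1 were higher, Mcl1 was higher and Bcl2l1 was lower, while Trp53, Mdm2 and Cdkn1a were not called. In edgeR's quasi-likelihood test with Benjamini-Hochberg adjustment over all 15448 genes tested (threshold 0.05), 10 of the 36 genes were higher and 1 was lower with Activin A, and 25 did not pass. Leaving out replicate 3 with Activin A gave 15 calls, and leaving out replicate 3 without it gave 7. Over all genes tested 29.2% were called, 15.2% higher and 14.0% lower with Activin A, so the share called among the 36 genes (30.6%) was close to that of all genes. Their median log2 fold change was 0.054, against -0.0012 over all genes tested. The libraries of the 2 groups did not overlap for 14 of the 36 genes, against 42.9% of all genes tested. Every called change was smaller than 1.5-fold except that of Pmaip1.

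**Figure D1:**
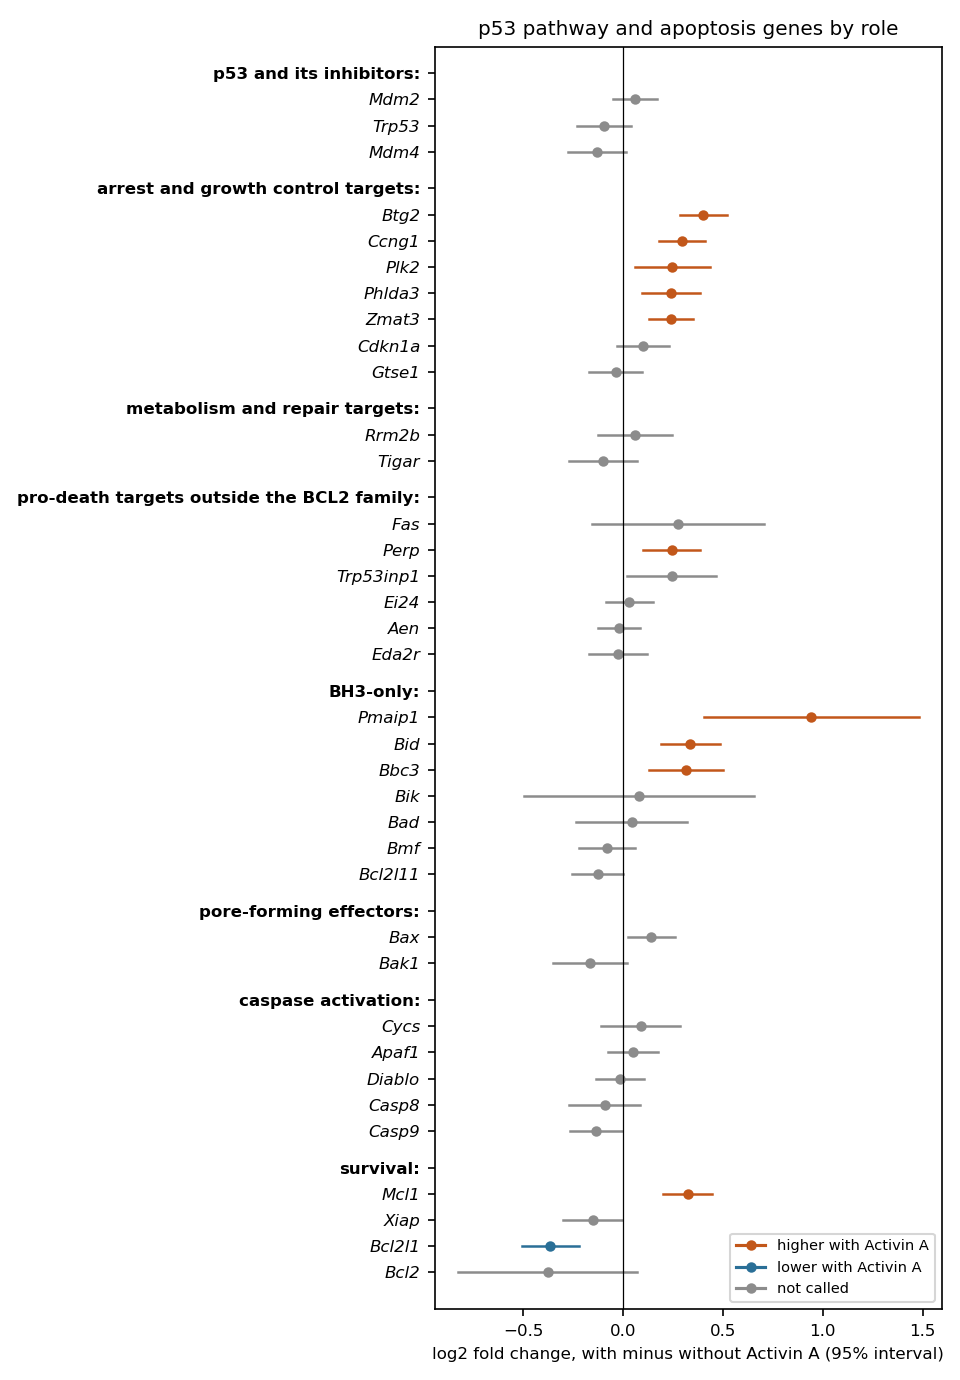
Log2 fold change, with minus without Activin A, and its 95% interval for the 36 genes, ordered by role and coloured by the edgeR call. In the arrest class 5 of 7 genes lie to the right of 0 with a call, and Bcl2l1 is the only called gene to the left.

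The transcription factor gene Trp53 had 236, 238 and 199 CPM in the 3 libraries with Activin A, against 236, 248 and 236 CPM without. CPM are read counts scaled to a common library size by the TMM method, and the lowest value is that of the library with Activin A replicate 3. The groups overlapped, and the log2 fold change was -0.095 with a 95% interval of -0.23 to 0.040 (edgeR adjusted p = 0.293). With GC and length trends removed it was called lower, at -0.12. Trp53 (chromosome 11, 69580359 to 69591873 of GRCm38) has 10.1% of its 31-base sequence words in common with further genes, mostly its pseudogene, so a part of its reads is uncertain in origin. Mdm2, which encodes the ubiquitin ligase that marks p53 for breakdown and is itself a p53 target, had 116, 109 and 115 CPM with Activin A, against 112, 107 and 107 CPM without. Its values overlapped between groups, and the interval of its log2 fold change was -0.053 to 0.17 (edgeR adjusted p = 0.444). This holds for reads summed over all transcripts. Protein-coding transcripts of Mdm2 of at least 500 bases averaged 7.41 TPM with Activin A and 10.6 TPM without, which was not tested. Mdm4 encodes the partner inhibitor of p53 and had 151, 143 and 178 CPM with Activin A, against 174, 172 and 170 CPM without (edgeR adjusted p = 0.167). Without the library with Activin A replicate 3, the highest of these, Mdm4 was called lower with Activin A at a log2 fold change of -0.22. Of the sequence words of Mdm4, 13.6% also occur elsewhere, mostly in its pseudogene.

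Among arrest and growth control targets, 5 of 7 were higher with Activin A, 0 were lower and 2 did not pass, against 15.2% higher and 14.0% lower of all genes tested. Btg2, an antiproliferative co-regulator of mRNA decay (ENSMUSG00000020423.6, chromosome 1, 134075170 to 134079120), had 103, 104 and 106 CPM with Activin A, against 75.7, 82.9 and 78.2 CPM without. The groups were well apart, at 104 ± 1.30 CPM with Activin A and 78.9 ± 3.65 CPM without it (SD, 3 libraries each), a 1.32-fold difference (log2 0.40, SE 0.054, edgeR adjusted p = 5.46e-05). This call held in all 17 alternative settings (other scalings, tools and filters, and libraries left out). Ccng1 encodes cyclin G1, a p53 target that recruits a phosphatase to MDM2 (ENSMUSG00000020326.7, chromosome 11, 40748552 to 40755311). It had 754, 709 and 811 CPM with Activin A, against 624, 618 and 612 CPM without, with every library with Activin A above every library without. The difference was 1.23-fold (log2 0.29, SE 0.054, edgeR adjusted p = 0.000779), and the call was lost only with limma-trend on log2(TPM + 1).

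Zmat3, an RNA-binding protein gene and p53 target, had 212, 198 and 218 CPM with Activin A, against 177, 172 and 183 CPM without. The groups did not overlap (1.18-fold, SE 0.052 on the log2 scale, edgeR adjusted p = 0.00301), and limma-trend lost this call too. Phlda3 encodes a pleckstrin homology protein that restrains AKT. It had 121, 124 and 102 CPM with Activin A, against 103, 95.5 and 96.8 CPM without, so that the library with Activin A replicate 3 lay within the other group. Its fold was 1.18 (edgeR adjusted p = 0.0163), and the call was lost without any one of 4 libraries (replicates 1 and 2 with Activin A, replicates 2 and 3 without it). Plk2, a polo-like kinase gene, had 28.1, 34.0 and 30.1 CPM with Activin A, against 25.01, 28.5 and 24.0 CPM without. Its groups overlapped, its adjusted p of 0.0483 in edgeR was at the edge of the threshold, and 7 of 17 alternatives lost the call.

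Cdkn1a, the gene of the cyclin-dependent kinase inhibitor p21 and a main effector of p53 arrest, had 92.6, 105 and 91.0 CPM with Activin A, against 92.0, 88.7 and 89.0 CPM without. The groups overlapped, and the 95% interval of the log2 fold change was -0.032 to 0.23 (edgeR adjusted p = 0.256). Without the library with Activin A replicate 3 it was called higher, at a log2 fold change of 0.13. Exons of a gene on the opposite strand overlap Cdkn1a, and whether the counting used the strand is not given. Gtse1, which encodes a G2 phase protein that restrains p53, had 84.6 to 98.6 CPM with Activin A and 95.8 to 97.4 CPM without (interval -0.17 to 0.097). The metabolism and repair targets also did not pass: Tigar, which lowers glycolytic flux, had an interval of -0.27 to 0.072, and Rrm2b, a ribonucleotide reductase subunit gene, one of -0.13 to 0.25.

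**Figure D2:**
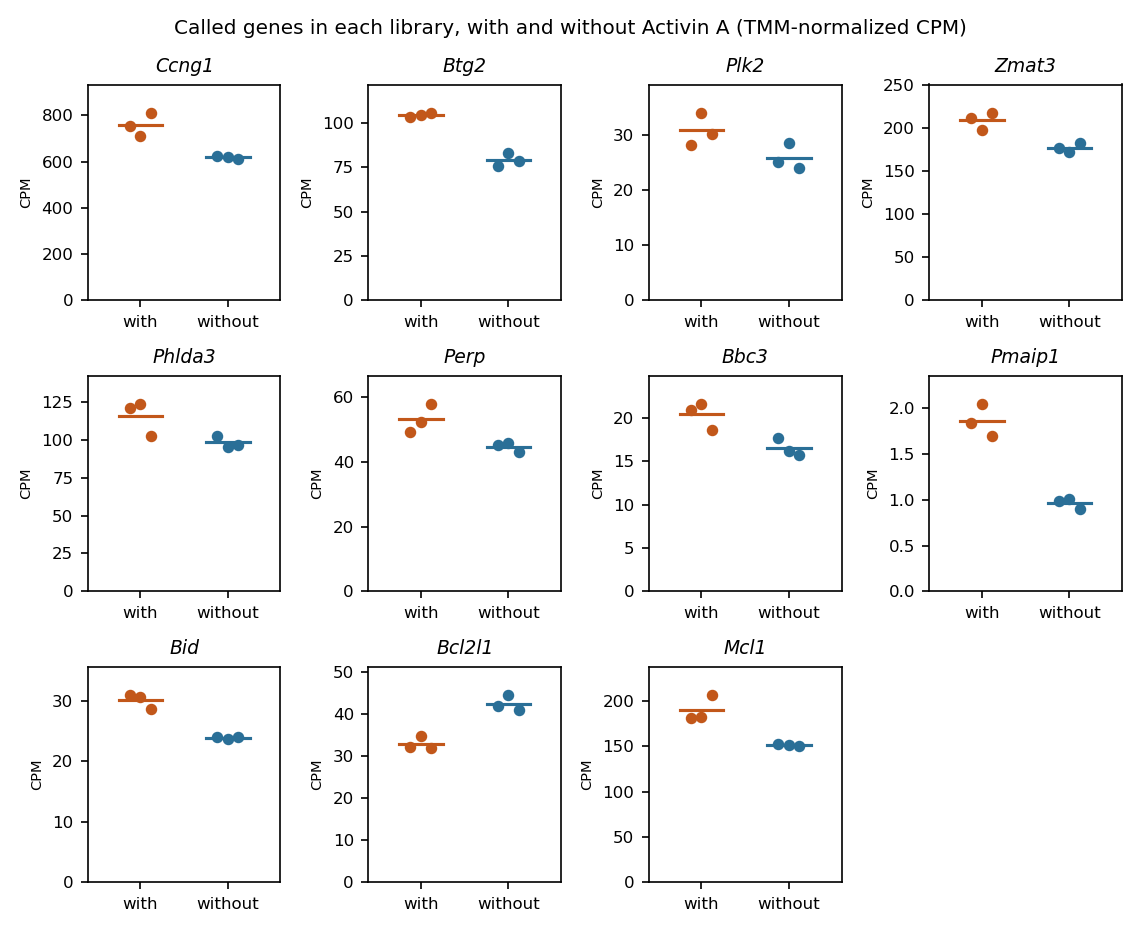
TMM-normalized CPM of the 11 called genes in each library, with Activin A on the left and without on the right of each panel; points are libraries and bars are group means. Plk2 and Phlda3 overlap between groups, and Bcl2l1 is the one gene with lower values with Activin A.

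Of the 20 pro-death genes, 4 were higher with Activin A, 0 were lower and 16 did not pass, a share called of 20.0% against 29.2% of all genes tested (15.2% higher). The p53 targets outside the BCL2 family gave 1 call. Perp, a tetraspan membrane protein gene, had 49.3, 52.5 and 58.1 CPM with Activin A, against 45.3, 45.9 and 43.2 CPM without. The groups did not overlap, with a 1.18-fold difference (edgeR adjusted p = 0.0142) that lost its call without replicate 1 or without replicate 3 of the group without Activin A, and also with limma-trend and the transcript length offset. Trp53inp1, a stress protein gene linked to p53 phosphorylation and autophagy, had a similar log2 fold change of 0.24 but did not pass, since its libraries with Activin A spread from 233 to 317 CPM, against 223 to 243 CPM without (edgeR adjusted p = 0.102). It passed in 5 of 17 alternatives. The nuclease gene Aen, the ectodysplasin receptor gene Eda2r and Ei24 had intervals within -0.17 to 0.15. The death receptor gene Fas had only 28 to 42 reads per library and a wide interval of -0.16 to 0.71 (edgeR adjusted p = 0.341).

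BH3-only genes gave 3 calls among 7, all higher with Activin A, where 15.2% of all genes tested were higher. Bid, the link from caspase 8 to mitochondria, had 31.05, 30.7 and 28.7 CPM with Activin A, against 24.1, 23.8 and 24.0 CPM without. The 3 libraries without Activin A were nearly equal, and all lay below those with it (1.26-fold, log2 0.34, SE 0.069, edgeR adjusted p = 0.00187). The call was lost with limma-trend on log2(TPM + 1) and with the transcript length offset. Exons of Bcl2l13 on the opposite strand overlap Bid. Bbc3, which encodes the p53-induced killer PUMA, had 21.0, 21.7 and 18.7 CPM with Activin A, against 17.6, 16.2 and 15.7 CPM without. The groups did not overlap (1.24-fold, edgeR adjusted p = 0.0137), but 7 of 17 alternatives lost the call, among them DESeq2 and the removal of any one of 4 libraries (the same 4 as for Phlda3).

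Pmaip1, the gene of the MCL1-binding protein NOXA, had the largest log2 fold change of the 36 genes. It had 1.83, 2.05 and 1.70 CPM with Activin A, against 0.992, 1.01 and 0.897 CPM without. Every library with Activin A lay above every library without, a 1.92-fold difference (log2 0.94, SE 0.25, edgeR adjusted p = 0.0111). The values rest on 12 to 30 reads per library, and the call was lost with DESeq2 and without the library with Activin A replicate 2. On the log2(TPM + 1) scale, which understates changes of low genes, the difference was 0.24. Bcl2l11, which encodes BIM, had 57.0, 54.3 and 59.1 CPM with Activin A, against 60.6, 65.3 and 59.8 CPM without. These values did not overlap, but the interval of -0.26 to 0.0013 reached 0 and the gene did not pass (edgeR adjusted p = 0.132). It was called lower, at -0.15, without the library with Activin A replicate 3. Bmf and Bad did not pass either, nor did Bik, whose 18 to 29 reads per library left an interval of -0.50 to 0.66.

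The pore-forming effector gene Bax, a p53 target, had 111, 122 and 112 CPM with Activin A, against 104, 103 and 107 CPM without. The groups did not overlap, yet the change was small and missed the threshold (log2 0.14, interval 0.022 to 0.26, edgeR adjusted p = 0.0719). It was called, at 0.17, with upper-quartile scaling (median of all genes 0.0311), and also without the library with Activin A replicate 3. Of the sequence words of Bax, 11.1% also occur elsewhere, mostly in an annotated gene that overlaps it on the same strand. Its partner Bak1 had 23.7, 24.3 and 19.4 CPM with Activin A, against 26.4, 25.3 and 24.5 CPM without (log2 -0.17, edgeR adjusted p = 0.177). With GC and length trends removed it was called lower, at -0.21. The groups did not overlap, and the values of Bak1 pointed the other way from those of Bax. Exons on the opposite strand overlap Bak1.

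None of the 5 genes of caspase activation passed, and their log2 fold changes ranged from -0.14 to 0.089. Apaf1, the scaffold of the apoptosome, had an interval of -0.077 to 0.18, and Diablo, whose product frees caspases from XIAP, one of -0.14 to 0.10. Casp9, the apoptosome caspase, had 38.1, 40.0 and 39.5 CPM with Activin A, against 41.2, 44.3 and 43.5 CPM without, values that did not overlap but did not pass (edgeR adjusted p = 0.114). With the transcript length offset the log2 fold changes of Casp9 and Diablo changed sign, to 0.18 and 0.12. Exons on the opposite strand overlap both genes. Casp8 had an interval of -0.27 to 0.086. The cytochrome c gene Cycs shares 29.1% and Diablo 18.5% of their sequence words with other genes, so their levels are less certain.

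The survival genes did not move together. Mcl1, a short-lived guardian that binds BIM and NOXA (ENSMUSG00000038612.16, chromosome 3, 95658788 to 95663176), had 181, 183 and 207 CPM with Activin A, against 153, 152 and 151 CPM without. The libraries without Activin A were nearly equal (SD 0.988 CPM) and below all those with it, and the difference was 1.25-fold (log2 0.32, SE 0.056, edgeR adjusted p = 0.000553). Bcl2l1, the gene of BCL-XL (ENSMUSG00000007659.18, chromosome 2, 152780668 to 152831728), had 32.3, 34.8 and 31.9 CPM with Activin A, against 42.0, 44.7 and 41.0 CPM without. It fell by 0.36 on the log2 scale (SE 0.066, edgeR adjusted p = 0.000742), or 1.29-fold lower with Activin A, and this call held in all 17 alternatives. The call of Bcl2l1 is for reads summed over all its transcripts, whose shares differed between groups (below). The call of Mcl1 was lost only with limma-trend on log2(TPM + 1).

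The founding member Bcl2 had 2.75, 2.05 and 2.69 CPM with Activin A, against 3.12, 2.63 and 4.04 CPM without. The groups overlapped, on 27 to 54 reads per library, and the interval was -0.83 to 0.071 (edgeR adjusted p = 0.202). Xiap, the caspase inhibitor gene, had 72.9, 60.1 and 71.0 CPM with Activin A, against 75.5, 74.2 and 77.0 CPM without. Its groups did not overlap, but it did not pass (log2 -0.15, edgeR adjusted p = 0.119). On protein-coding transcripts of at least 500 bases alone, Xiap averaged 3.78 TPM with Activin A and 6.19 TPM without, a difference that was not tested. By reads summed over transcripts, 22 of the 25 genes that did not pass had 95% intervals within a 1.5-fold change in either direction. The exceptions were Fas, Bik and Bcl2.

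Levels of different genes were compared per length, in TPM. Summed over all transcripts, Bax was highest, at 412 TPM with Activin A and 391 TPM without (means), followed in both groups by Ccng1, Phlda3 and Trp53 in varying order and then by Aen. Ccng1 averaged 145 TPM with Activin A and 119 TPM without, Phlda3 107 and 86.3 TPM, and Trp53 104 and 117 TPM. The lowest were Bcl2, at 0.258 TPM with Activin A and 0.316 TPM without, and Pmaip1, at 0.482 TPM with and 0.252 TPM without, so that these traded the last place. In the order with Activin A, 26 of 35 neighbouring pairs overlapped in their libraries, and the 9 steps without overlap were those below Bax, Ccng1, Trp53, Aen, Zmat3, Rrm2b, Bik, Fas and Pmaip1. Without Activin A, 24 of 35 pairs overlapped.

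The first rank of Bax depends on short annotated transcripts. Bax-204, of 222 bases, held 55.8% of the TPM of Bax but 4.30% of its reads, and Bax-201, of 867 bases, held 66.5% of the reads. On protein-coding transcripts of at least 500 bases alone, Ccng1 was highest, at 145 TPM with Activin A and 119 TPM without. Bax then had 96.1 TPM with Activin A and 85.6 TPM without, and Trp53 85.4 TPM with and 92.6 TPM without, so that Bax was below Ccng1 in both groups and below Trp53 without Activin A. Phlda3, at 43.2 TPM with and 39.5 TPM without, was then below Aen, at 55.5 TPM with and 57.8 TPM without. Among survival genes, Mcl1 was highest and Bcl2 was lowest in both groups. The TPM ratio of Mcl1 to Bcl2l1 was 3.04 ± 0.339 with Activin A and 1.81 ± 0.127 without (SD, n = 3 each), and that of Mcl1 to Bcl2l11 was 3.88 ± 0.296 with and 2.40 ± 0.225 without. Bcl2l11-204, of 672 bases, held 0%, 0% and 14.6% of the TPM of Bcl2l11 with Activin A, against 22.4%, 15.7% and 26.9% without. It held a mean of 1.86% of the reads, so the size of the ratio of Mcl1 to Bcl2l11 also depends on a short transcript. The ratio of Bax to Bcl2l1 was 32.9 ± 0.586 with Activin A and 22.7 ± 1.60 without it. With the longer coding transcripts only, the last ratio was 10.5 ± 0.459 with and 6.73 ± 0.636 without, so its size depends on the short transcripts while its order between groups was the same. The groups did not overlap in any of these 3 ratios, which are given as descriptions without a test. The ratio of Mdm2 to Trp53 was 0.404 ± 0.0402 with Activin A and 0.357 ± 0.0149 without, but 0.0861 ± 0.0208 with and 0.113 ± 0.0289 without on the longer coding transcripts alone, so its order between groups depends on which transcripts are summed. The same holds for Mdm4 to Mdm2, at 0.512 ± 0.0370 with Activin A and 0.632 ± 0.0248 without over all transcripts, and at 2.00 ± 0.901 with and 1.47 ± 0.472 without on the longer coding transcripts. Bax to Bcl2 overlapped between groups over all transcripts, at 1613 ± 163 with Activin A and 1260 ± 190 without, but not on the longer coding transcripts, at 375 ± 35.0 with and 277 ± 48.2 without.

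**Figure D3:**
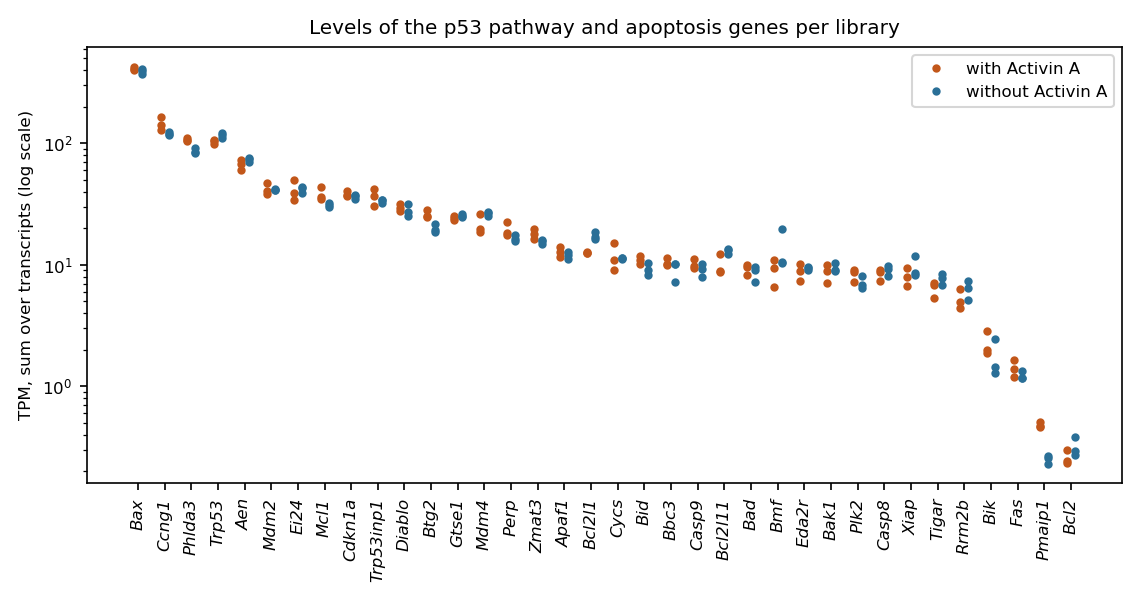
Level of each gene per library in TPM, summed over transcripts, on a log scale, with Activin A left of without at each gene, in descending order of the mean with Activin A. Bax is highest in this sum, although it lies below Ccng1 on protein-coding transcripts of at least 500 bases, Bcl2 and Pmaip1 are lowest, and most genes differ little between groups beside the range of levels between genes.

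Transcript use was described by the share of a gene's TPM held by its most abundant transcript. Of the 33 genes with at least 2 detected transcripts, 7 (21.2%) had shares that did not overlap between groups, against 15.0% of all 12182 such genes. Of the 7, 6 were higher with Activin A and 1 was lower, against 10.2% higher and 4.84% lower among all such genes. With shares of reads, and the most abundant transcript taken by reads, the number was 5, against 16.3% of all such genes. An exact two-sided permutation test of 3 against 3 libraries cannot go below p = 0.1. Any gene whose groups do not overlap reaches that value, so for these 7 the test only restates how they were picked. The split of reads between transcripts of a gene is an estimate with no deposited measure of its error.

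Bcl2l11-205, of 5036 bases, held 69.2%, 67.5% and 57.1% of the TPM of Bcl2l11 with Activin A, against 44.2%, 49.0% and 47.1% without. Its share was higher with Activin A in each library, while the summed reads of the gene were not called. Bcl2l1-201 held 59.7%, 64.2% and 64.3% of the TPM of Bcl2l1 with Activin A, against 45.9%, 46.9% and 53.4% without. Its share was thus larger where the reads of the gene were lower. Bcl2l1-202 held 1.07%, 2.31% and 0% with Activin A, against 12.3%, 11.8% and 3.76% without. Bcl2l1-204 held 0%, 5.44% and 0% with Activin A, against 8.77%, 11.5% and 11.1% without. By reads, Bcl2l1-201 held 81.9%, 84.0% and 83.3% with Activin A, against 63.1%, 65.1% and 76.8% without. The other transcripts of Bcl2l1 were thus lower with Activin A by more, in proportion, than Bcl2l1-201. Whether Bcl2l1-201 itself was lower with Activin A was not tested, so the call of the gene holds for its summed reads only. Mdm4-210, of 7105 bases, held 62.6% to 64.6% with Activin A, against 53.1% to 55.7% without. Casp9-201 was the one with a lower share with Activin A, at 58.4% to 63.4%, against 67.9% to 84.6% without. Mdm2-209, annotated as a target of nonsense-mediated decay, held 31.8% to 38.6% with Activin A and 18.7% to 31.2% without, but its share of reads overlapped between groups. Xiap-207, a transcript with no annotated coding sequence, held 37.7% to 53.6% with Activin A and 10.0% to 29.7% without. Eda2r-201 differed least, at 68.4% to 70.3% with Activin A and 62.7% to 65.9% without.

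**Figure D4:**
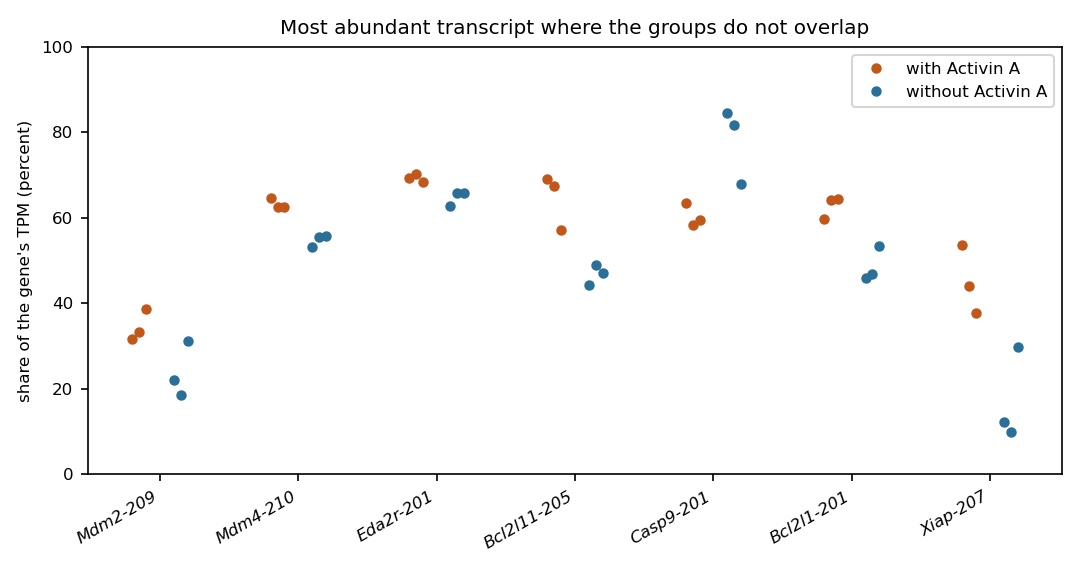
Share of the gene's TPM held by the most abundant transcript in each library, for the 7 genes whose groups do not overlap, with Activin A left of without. Casp9-201 is the one transcript with lower shares with Activin A.

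Larger changes than these were found among other genes of the p53 pathway. Of a further 44 regulators and targets, 43 were tested, of which 14 were higher and 7 lower with Activin A and 22 did not pass, a share called of 48.8% against 29.2% of all genes tested. Their median log2 fold change was 0.12, and the range was from -1.19 to 1.55. Trp73, which encodes the p53 relative p73, had 8.68, 9.59 and 5.89 CPM with Activin A, against 2.69, 2.76 and 2.92 CPM without. All libraries with Activin A were well above the others, a 2.93-fold difference (edgeR adjusted p = 1.26e-05), although exons of an antisense gene overlap it. Sfn, the gene of the arrest protein 14-3-3 sigma, had 12.4, 13.3 and 12.8 CPM with Activin A, against 4.61, 4.45 and 4.49 CPM without. The groups lay far apart at 2.84-fold (edgeR adjusted p = 9.87e-08), and 26.8% of the sequence words of Sfn also occur elsewhere, mostly in a pseudogene.

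The arrest gene Rprm was 1.77-fold higher and the adenylate kinase gene Ak1 1.42-fold higher with Activin A (edgeR adjusted p = 0.000432 and 0.000341). The growth arrest gene Gadd45a went the other way, with 29.9, 31.2 and 26.2 CPM with Activin A, against 65.9, 66.8 and 68.4 CPM without. It was 2.29-fold lower with Activin A (log2 -1.19, SE 0.067, edgeR adjusted p = 6.28e-09), and exons on the opposite strand overlap it. Sesn2, a stress gene that restrains mTORC1, was 1.38-fold lower, the p53 kinase gene Hipk2 1.47-fold lower and the DNA damage gene Trp53bp1 1.19-fold lower. The calls of Ak1 and Hipk2 were lost with limma-trend and with the transcript length offset, where the log2 fold change of Hipk2 was -0.24 and -0.26. Arrest targets of this wider list were called in both directions.

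**Figure D5:**
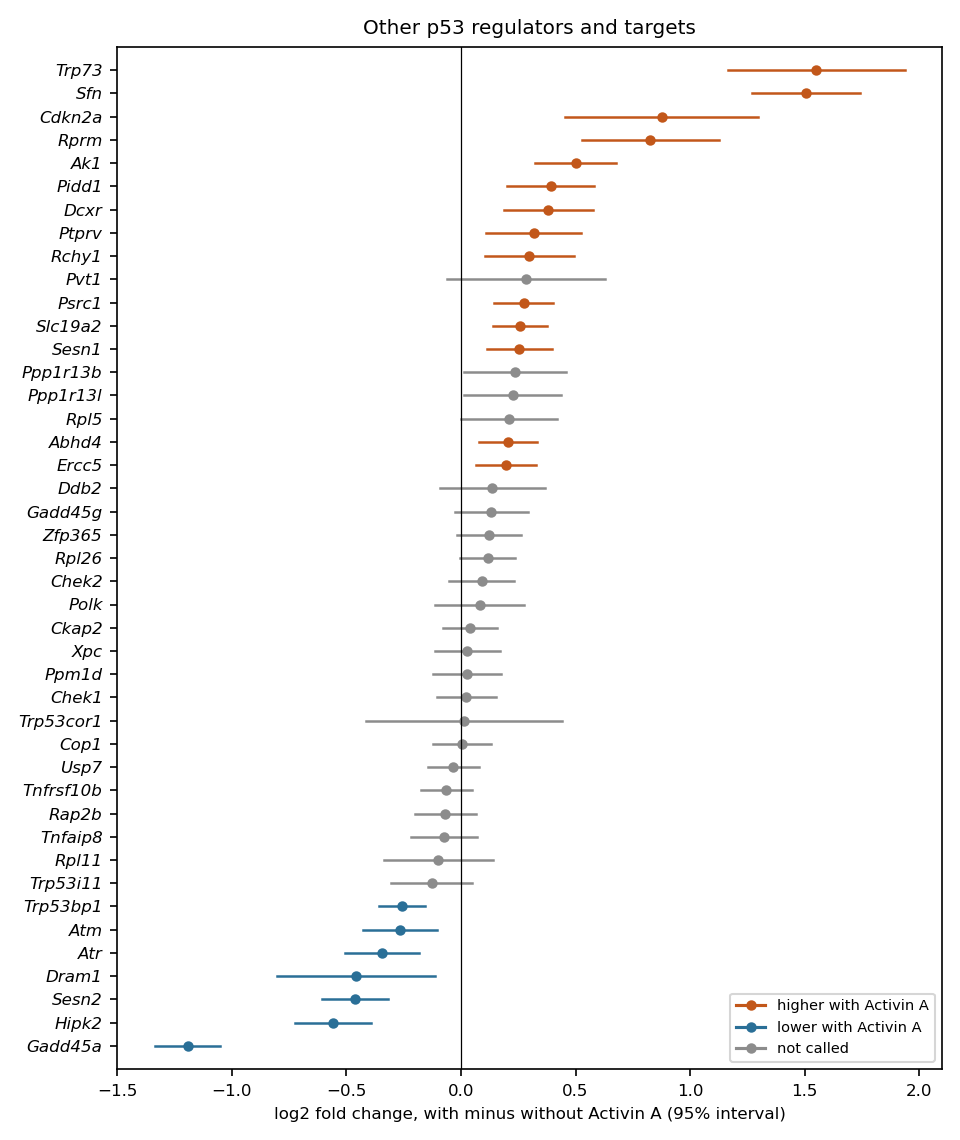
Log2 fold change, with minus without Activin A, and its 95% interval for the 43 tested regulators and targets of p53 outside the 36 genes. Trp73 and Sfn lie farthest to the right and Gadd45a farthest to the left.

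Of 40 further apoptosis genes, 35 were tested, of which 2 were higher and 3 lower with Activin A and 30 did not pass, a share called of 14.3% against 29.2% of all genes tested. Leaving out replicate 3 with Activin A gave 11 calls, and leaving out replicate 2 without it gave 3. Birc2, which encodes an inhibitor of apoptosis protein of TNF receptor signalling, had 71.9, 71.8 and 87.7 CPM with Activin A, against 54.3, 54.0 and 52.9 CPM without. Every library with Activin A was higher (1.43-fold, edgeR adjusted p = 0.000102), and the call was lost only with limma-trend. Birc6, a giant inhibitor of apoptosis gene, was 1.27-fold lower with Activin A, and Parp1 and the kinase gene Dapk1 were 1.13-fold and 1.17-fold lower. Leaving out replicate 2 without Activin A lost the calls of Parp1 and Dapk1, and leaving out replicate 1 of that group lost that of Dapk1. With limma-trend and with the transcript length offset, the calls of Birc6, Parp1 and Dapk1 were lost, and the log2 fold change of Parp1 was -0.068 and -0.026.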

How the data were processed

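Per the file headers, the deposited files hold salmon's columns, among them estimated counts and TPM for each transcript. The deposited estimated counts are not normalized, and the TPM values deposited by the authors are scaled by transcript length and library total. Salmon, DESeq2 and edgeR are named without versions per the submitters' processing notes; the sources used here name no build, annotation or strand setting. Of 133618 transcripts, 133399 matched GENCODE M21 (GRCm38) with the version ignored, and the others were left out (0.140% ± 0.00657 of reads, SD over 6 libraries).

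Estimated counts were summed per gene, rounded and tested with edgeR 4.0.16 in R 4.3.3 (filterByExpr with a minimum count of 10 and total of 15, TMM, robust quasi-likelihood F test, Benjamini-Hochberg adjustment). Log2 fold changes are with minus without Activin A. Standard errors (SE) were derived from the fold change and F. On simulated counts for this comparison (15214 genes fitted), 91.8% of genes changed by 1 and 68.4% of those changed by 0.5 on the log2 scale were recovered. The 17 alternatives are upper-quartile scaling, RLE scaling, limma-trend (limma 3.58.1) on log2(TPM + 1), DESeq2 1.42.0, no filter and a filter of 1 CPM, a transcript length offset, protein-coding genes only, GC and length trends removed (mgcv 1.9.3), a replicate block, each library left out, and 2 doubted libraries left out together. No library was a duplicate of another within counting error.

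All 36 genes are named. Per-library values are given for called genes and 8 fixed by name whether called or not, and of each wider list up to 4 called genes per direction with the smallest adjusted p, of which 1 gene is not reported here. Some per-library values of further genes (Mdm4, Bak1, Casp9, Xiap) and the Mcl1 to Bcl2l1 ratio were given, and levels over longer coding transcripts computed, after the data were seen. The genes, lists and rule were chosen with earlier results of these data known.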

Additional observations from a re-analysis of the deposited data

How the results depend on the processing

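The calls of Btg2 and Bcl2l1 held in all 17 alternatives, those of Ccng1, Zmat3 and Mcl1 in 16, those of Pmaip1 and Bid in 15, those of Phlda3 and Perp in 13 and those of Plk2 and Bbc3 in 10. No called gene changed sign. Of the 36 genes, 11 were called in the main test and 7 to 15 on leaving out each library in turn (6 to 12 higher, 1 to 3 lower). Limma-trend on log2(TPM + 1) called 4 (3 higher), and the transcript length offset 7 (6 higher). With GC and length trends removed, 3 were lower, and without both doubted libraries (with Activin A replicate 3, without Activin A replicate 1) 2 were lower. Over all genes, limma-trend called 1559 (781 higher, 778 lower) and the length offset 2050 (1113 higher, 937 lower), against 4505 in the main test and 3246 to 5689 on leaving out a library (1763 to 2881 higher, 1483 to 2808 lower). The other p53 genes called numbered 7 (4 higher, 3 lower) with limma-trend and 8 (5 higher, 3 lower) with the length offset, against 21, and 14 to 23 on leaving out a library (9 to 17 higher, 5 to 6 lower). The other apoptosis genes called numbered 1 (0 higher, 1 lower) with limma-trend, 2 (1 higher, 1 lower) with the length offset and 11 (8 lower) with GC and length trends removed, against 5. They were 3 to 11 on leaving out a library (1 to 4 higher, 1 to 7 lower), and 4 were higher with upper-quartile scaling. The cause of these shifts was not tested. The genes whose main transcript share did not overlap numbered 7 in the main test and 9 to 13 on leaving out a library, since fewer libraries overlap less often; by share of reads it was 5.

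Signs changed only in genes that did not pass, with log2 fold changes as follows. Upper-quartile scaling gave 0.0080 for Eda2r, 0.011 for Aen and 0.016 for Diablo. Limma-trend gave -0.23 for Rrm2b, -0.043 for Ei24, 0.13 for Casp9 and 0.077 for Diablo. The length offset gave -0.25 for Rrm2b, 0.18 for Casp9 and 0.12 for Diablo. With GC and length trends removed, Eda2r was at 0.023 and Bad at -0.032. Without both doubted libraries, Gtse1 was at 0.043, Aen at 0.030, Ei24 at -0.0013 and Bik at -0.20. On leaving out each library in turn, the log2 fold change spanned -0.073 to 0.032 for Gtse1, -0.062 to 0.053 for Eda2r, -0.046 to 0.012 for Aen, -0.0056 to 0.065 for Ei24, -0.17 to 0.28 for Bik, -0.085 to 0.16 for Bad and -0.019 to 0.19 for Cycs.

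Upper-quartile scaling moved the share of calls that were higher with Activin A to 60.9% over all genes, against 52.2% in the main test. The replicate numbers did not pair the libraries (correlations of same-numbered deviations -0.0249, -0.0521 and -0.0570), and a replicate block called 4422 of all genes and left 12 of the 36 genes called, with Trp53inp1 added. Counts of 12 to 54 reads per library limit Pmaip1, Bik, Bcl2 and Fas.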
